A study of Bos taurus with 4 samples.

Results

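The microRNAs described are miR-10a, miR-10b, miR-99a, miR-99b, miR-100, miR-125a and miR-125b, 7 of the 502 bovine microRNAs named in small RNA libraries of cow oocytes. Their reads were found by name, after removal of the bracketed note, the arm and the copy number that the annotation adds, and comprised 474 of 2468643 distinct sequences. The 2 TDRKH IP libraries (TDRKH IP 1 and 2) hold RNA recovered with an antibody against TDRKH, a Tudor domain protein of the germline that binds PIWI proteins. The 2 input libraries (input 1 and 2) hold RNA of the same kind of oocyte with no antibody. All 4 came from Bos taurus oocytes at the germinal vesicle (GV) stage, before meiosis resumes. No label says how many oocytes or animals a library holds, or whether the 2 libraries of a group come from separate collections, so the p-values reflect library-to-library spread that may be technical. No library made with a control antibody was analysed here.

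A microRNA is cut from a hairpin as a duplex of 2 short strands, of which an Argonaute protein usually keeps one, the mature strand. Bases 2 to 8 of that strand, the seed, pair with target messenger RNAs, so microRNAs with the same seed form a family. The miR-10 and miR-99/100 families are related in sequence but differ in their seeds, and miR-125 is the vertebrate counterpart of worm lin-4, the first microRNA described. In the RefSeq gene table for assembly ARS-UCD2.0, MIR10A lies within HOXB3 and MIR10B within HOXD4, in the HOX clusters that pattern the body axis. The other hairpin genes stand beside let-7 genes, within 60 kb of them: MIR99A with MIRLET7C and MIR125B-2, MIR100 with MIRLET7A-2 and MIR125B-1, and MIR99B with MIRLET7E and MIR125A.

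The sequences that the files list under a plain name, or as miR-99a-5p, were taken as the mature sequences (U written as T). They are shown first because all later results depend on which of these letters a read carries, with the seed in capitals.
miR-10a: tACCCTGTagatccgaatttgtg
miR-10b: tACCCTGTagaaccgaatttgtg
miR-99a: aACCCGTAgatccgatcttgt
miR-99b: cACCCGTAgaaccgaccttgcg
miR-125a: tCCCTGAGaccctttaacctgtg
miR-125b: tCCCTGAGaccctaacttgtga
miR-10a and miR-10b shared all 7 seed bases and 22 of 23 bases in all. miR-125a and miR-125b had 15 of 22 compared bases in common, and miR-99a and miR-99b 17 of 21. No row listed miR-100 without a note, so its sequence is not printed. The substitution in its notes placed it 1 base from miR-99a, at position 16 (A16T, positions counted from 1 at the 5′ end of the mature sequence).

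The TDRKH IP libraries held 11138905 and 11060320 listed reads and the inputs 1079364 and 1354003, all of 18 to 36 nt. Reads with the name of a piRNA cluster, the small RNAs that PIWI proteins bind, made up 96.9% and 96.8% of TDRKH IP reads, against 88.8% and 87.8% of input reads. Bovine microRNAs made up 0.0603% and 0.0735% of TDRKH IP reads, against 1.77% and 1.82% of input reads. The level of a microRNA is given as reads per 1000000 listed reads (RPM), a share of the library, so fewer microRNA reads and more piRNA reads in a library cannot be told apart. Of the microRNA markers of other cell types, the 5 of the cumulus and granulosa cells summed to 6.28 and 12.7 RPM in TDRKH IP and to 449 and 505 RPM in input. miR-122, a liver microRNA, had 1.71 and 2.35 RPM in TDRKH IP and 435 and 335 RPM in input. The 3 of the erythroid cells were at 0 in all libraries. The leukocyte list (3 of 4 markers detected, miR-223 at 0), the muscle and stroma list (4 of 5, miR-133a at 0) and the epithelial list (3 of 3) each summed to at most 3.71 RPM in TDRKH IP and to between 49.5 and 88.0 RPM in input, and the part of these cells in the results was not tested.

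The reads of the 7 microRNAs together were few in the TDRKH IP. They numbered 305 and 452 in TDRKH IP, against 2788 and 4187 in input. That is 27.4 and 40.9 RPM in TDRKH IP and 2583 and 3092 RPM in input, a difference of -6.40 in mean log2 RPM. The mean was 83.2-fold lower in TDRKH IP. Among bovine microRNA reads alone they made up 5.05% ± 0.721 in TDRKH IP and 15.8% ± 1.73 in input (SD, n = 2 each). Both TDRKH IP libraries lay below both inputs, and the exact permutation test gave p = 0.333, the smallest that 2 against 2 libraries allow (two-sided, as in all such tests below).

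Under the names as deposited, all 7 fell in edgeR's quasi-likelihood test with Benjamini-Hochberg adjustment. The log2 changes lay between -6.95 for miR-10b (SE 0.14, adjusted p = 2.11e-08) and -4.98 for miR-100 (SE 0.51, adjusted p = 9.54e-05), with a median of -5.22. Over all 5353 names tested 57.7% were called lower and 16.9% higher, and the median was -2.38. Of 150 other bovine microRNAs tested, 128 fell and 3 rose, with a median of -5.68. miR-99a, miR-99b, miR-100 and miR-125b passed the filter on low counts only through the inputs and had to differ.

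The names did not follow the letters of the reads. The capital in these lines marks position 12, the only base that separates miR-10a from miR-10b.
miR-10a: taccctgtagaTccgaatttgtg
miR-10b: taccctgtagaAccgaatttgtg
The files named the leading member read, which has the miR-10b base, as miR-10a with a note of the substitution T12A. Of the reads named miR-10a, 99.4% in TDRKH IP and 97.7% in input had the letters of miR-10b. The letters of miR-10a, T at position 12, were carried by 1 of 211 and 1 of 307 reads of the pair in TDRKH IP, against 11 of 2367 and 14 of 3625 in input. As shares these are 0.474% and 0.326% in TDRKH IP and 0.465% and 0.386% in input, with overlap (exact permutation p = 1). The summed TDRKH IP libraries held 2 reads with T and the summed inputs 25. Their rate was 114-fold lower in TDRKH IP, with an exact 95% counting interval of 28.4 to 993. C at position 12, the base of neither microRNA, was carried by 0 and 0 reads in TDRKH IP and by 10 and 9 in input. Whether the reads with T are miR-10a or miR-10b with a substitution was not tested. Below, miR-10a by letters means T at position 12. The reads named miR-100 were likewise those of another microRNA: all 9 in TDRKH IP and all but a shared read in input had the letters of miR-99a. An A at position 16, the base of miR-100, was carried by 0 of 12 reads in TDRKH IP and 0 of 75 in input, which allows shares of up to 25% and 4%. Reads with a miR-100 name of another species and no bovine member name, 9 and 8 in TDRKH IP and 0 and 1 in input, were outside the rule and left out, as were 0 to 15 such reads per library for each of the other members.

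**Figure D1:**
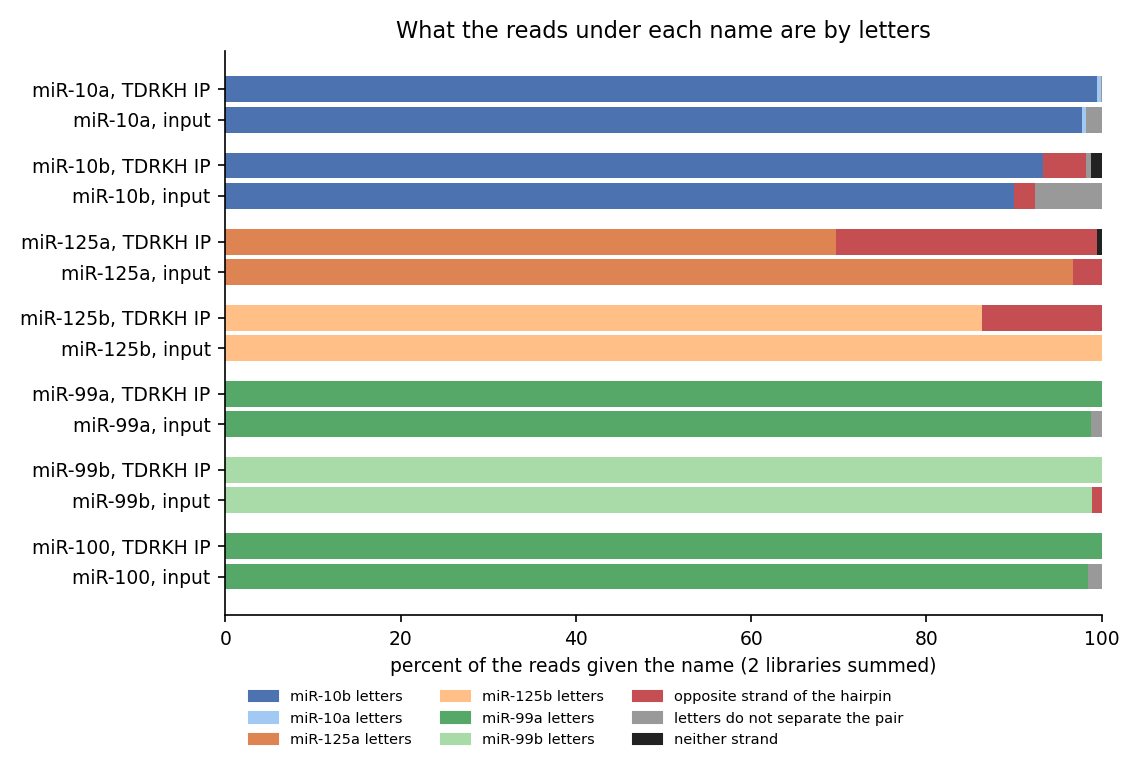
Letters of the reads under each deposited name, TDRKH IP above input, as percent of the reads with that name (horizontal axis, both libraries of a group summed; colours give the letters). The miR-10a rows are almost wholly miR-10b letters (99.4% in TDRKH IP and 97.7% in input), the miR-100 rows are miR-99a letters, and the opposite strand fills 29.8% of the miR-125a row in TDRKH IP and 3.26% in input.

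The arm names did not follow the letters either. The suffix -3p stood on 87.5% and 89.6% of member reads in TDRKH IP and on 94.8% and 92.5% in input. Of the reads with that suffix, 92.5% and 89.6% in TDRKH IP and 98.9% and 99.4% in input lay on the mature sequences above, which come from the 5′ side of the hairpins in vertebrates. Of the 11 arm names tested, all were called lower in TDRKH IP, where 58.1% of all names in that table were, and they are not read as strands in what follows. All but 3 of them (miR-10a-3p, miR-10b-3p and miR-125a-3p) passed the filter on low counts only through the inputs, so the count is a description. Reads were therefore given to the microRNA and strand whose letters they matched with at most 2 mismatches over at least 15 bases, a choice made after the names had been seen.

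Sorted by letters, miR-10b was the member with the most reads. By mean RPM it ranked 8th in TDRKH IP and 1st in input, of 467 microRNAs with reads once split counts were rounded. The microRNAs other than the members were ranked under their deposited names. miR-10b had 18.9 and 27.9 RPM in TDRKH IP and 2117 and 2612 RPM in input. It fell by 6.66 on the log2 scale (SE 0.18, adjusted p = 1.27e-07, edgeR). miR-125a was second, at 6.19 and 9.76 RPM in TDRKH IP and 296 and 284 RPM in input, and fell by 5.18 (SE 0.16, adjusted p = 2.64e-07, edgeR). For both, every TDRKH IP library was far below every input library. The 3 scarcer members lay close together: miR-125b at 0.991 ± 0.132 RPM in TDRKH IP and 33.9 ± 7.37 RPM in input, miR-99b at 0.992 ± 0.515 and 36.9 ± 16.8 RPM, and miR-99a at 0.541 ± 0.00271 and 30.0 ± 5.68 RPM (SD, n = 2 each, TDRKH IP given before input). Their order was within the spread of the inputs. All 3 fell, with log2 changes of -5.08 for miR-125b, -5.22 for miR-99b and -5.75 for miR-99a (adjusted p of 9.92e-06, 4.74e-05 and 8.08e-06, edgeR). miR-10a, at 0.0898 and 0.0904 RPM in TDRKH IP and 10.2 and 10.3 RPM in input, was the scarcest with any read. All 6 members with reads by letters were called lower, against 57.8% of all names in this table, and those of under 2 RPM in TDRKH IP had passed the filter only through the inputs.

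**Figure D2:**
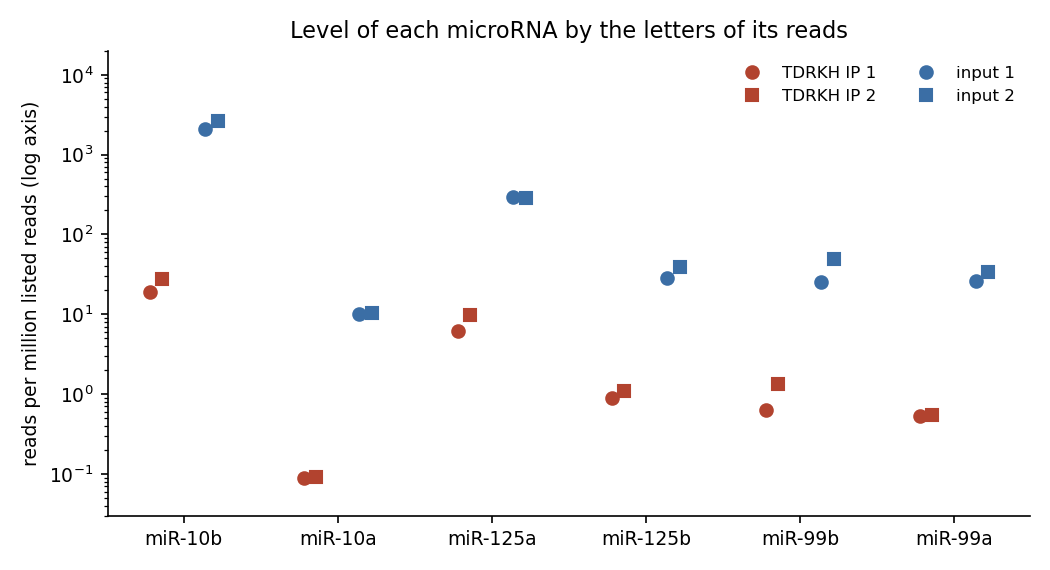
Level of each microRNA by the letters of its reads, in RPM on a log axis, with TDRKH IP libraries (red) left of inputs (blue) and each point 1 library. miR-10b stands at 18.9 and 27.9 RPM in TDRKH IP and 2117 and 2612 RPM in input. The microRNAs shown other than miR-10b and miR-125a passed the filter on low counts only through the inputs.

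With the total of microRNA reads as library size, which compares the microRNAs with each other, the calls differed between members. The median of all names then stood at 2.31 on the log2 scale in place of -2.38, and of the 150 other microRNAs 75 were called lower and 28 higher, with a median of -0.96. miR-10b still fell, by 1.92 (SE 0.23, adjusted p = 9.87e-17, edgeR), and so did miR-10a, by 2.02 (adjusted p = 0.0485), and miR-99a, by 1.04 (adjusted p = 0.04996, and 0.0525 in the fit by strands). With 1 and 1 reads of miR-10a and 6 and 6 of miR-99a in TDRKH IP, these 2 had passed the filter only through the inputs, and their calls are given as values only. miR-99b (-0.50, adjusted p = 0.284), miR-125a (-0.45, adjusted p = 0.124) and miR-125b (-0.36, adjusted p = 0.454) did not pass edgeR's test on this scale. The mature strand of miR-125a alone, without the opposite strand described below, fell by 0.91 (SE 0.28, adjusted p = 0.00222, edgeR). On this scale 3 of 7 members by name were called lower, against 8.99% of all names lower and 61.3% higher, and 3 of 6 by letters, against 9.02% of names. Of the families 1 of 3 was called lower, against 8.95% of names, and of the arm names 5 of 11, against 9.34%.

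The make-up of the member reads moved the same way. The miR-10 family, which comprised miR-10a and miR-10b, held 69.8% and 68.6% of member reads in TDRKH IP and 85.4% and 86.9% in input. The miR-125 family held 25.9% and 26.8% in TDRKH IP and 12.6% and 10.5% in input. Part of that family's share was the opposite strand of miR-125a, at 5.57% and 7.96% of member reads in TDRKH IP and 0.502% and 0.215% in input. The mature strand of miR-125a held 17.0% and 15.9% in TDRKH IP and 11.0% and 8.98% in input. The miR-99/100 family held 4.26% and 4.65% in TDRKH IP and 2.01% and 2.67% in input. In none of the 3 did the TDRKH IP and input libraries overlap, and each exact permutation test gave p = 0.333, the smallest possible. The 95% Wilson intervals of the miR-10 family were 64.5% to 74.7% and 64.2% to 72.7% in TDRKH IP, against 84.0% to 86.7% and 85.8% to 87.8% in input, and cover counting error only. Summed as families, the log2 changes were -6.70 for miR-10, -5.46 for miR-99/100 and -5.17 for miR-125 (adjusted p of 8.05e-08, 7.09e-06 and 1.76e-07, edgeR), where 57.7% of names were called lower.

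**Figure D3:**
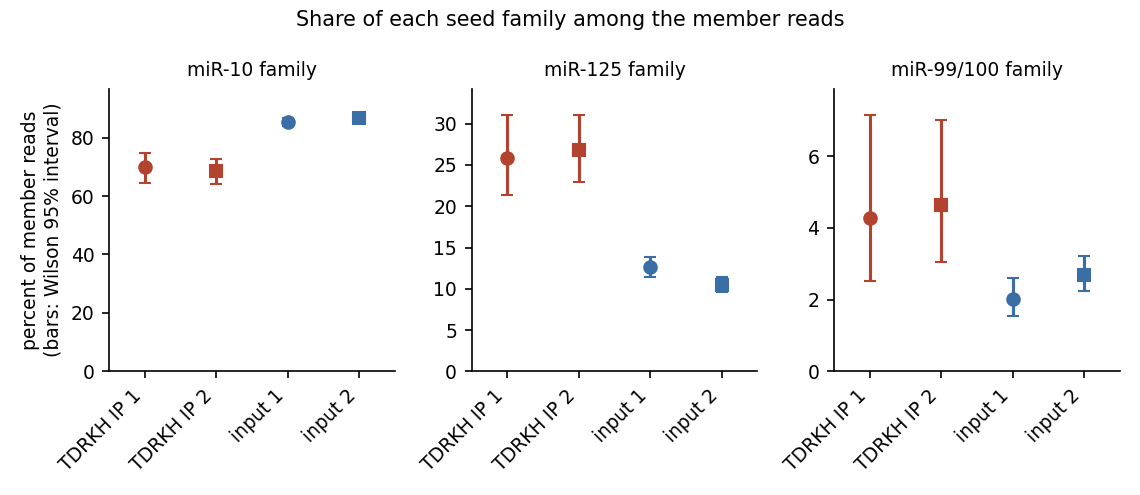
Share of each seed family among the member reads in each library (percent, TDRKH IP left of input; bars are Wilson 95% intervals; the vertical axes differ in scale and start at 0). The miR-10 family is lower in both TDRKH IP libraries (69.8% and 68.6%) than in both inputs (85.4% and 86.9%), and the miR-125 family is higher.

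The strands of miR-125a did not fall alike. The leading read of the opposite strand, which comes from the 3′ side of the hairpin, is shown beside that of miR-10b, with bases 2 to 8 in capitals.
miR-125a, opposite strand: aCAGGTGAggttcttgggagc
miR-10b, opposite strand: aCAGATTCgattctaggggaat
The opposite strand of miR-125a had 17 and 36 reads in TDRKH IP, against 14 and 9 in input. It made up 24.6% and 33.3% of miR-125a reads in TDRKH IP (Wilson 95% intervals 16.0% to 36.0% and 25.2% to 42.7%) and 4.38% and 2.34% in input (2.62% to 7.21% and 1.23% to 4.38%). The intervals of the groups did not overlap, and the exact permutation test gave p = 0.333, the smallest possible. In RPM the mature strand of miR-125a stood at 4.67 and 6.51 in TDRKH IP and 283 and 278 in input, and fell by 5.64 on the log2 scale (SE 0.13, adjusted p = 9.00e-08, edgeR). The opposite strand stood at 1.53 and 3.25 RPM in TDRKH IP and 13.0 and 6.65 RPM in input. Its log2 change was -1.99 (SE 0.54, adjusted p = 0.0119, edgeR), but the direction depends on the scale: -0.65 with TMM factors (adjusted p = 0.272), 0.07 with DESeq2's own size factors (adjusted p = 0.95) and 2.71 with microRNA totals (adjusted p = 9.59e-10). With no filter on low counts it was -1.99 with an adjusted p of 0.252 (edgeR). Without input 1 the change was -1.47 (adjusted p = 0.362) and without input 2 it was -2.43 (adjusted p = 0.151).

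The reads of that strand were few in kind. They fell into 14 distinct sequences in all, and the 21 nt form printed above made up 13 of 17 and 29 of 36 reads in TDRKH IP, against 7 of 14 and 3 of 9 in input. In level that form stood at 1.17 and 2.62 RPM in TDRKH IP and 6.49 and 2.22 RPM in input, with overlap between the groups. The opposite strand of miR-125b had 1 and 2 reads in TDRKH IP and none in input, where 3 reads would be 2.78 and 2.22 RPM, so no difference was detectable at this depth. That of miR-10b had 1 and 3 reads in TDRKH IP and 14 and 12 in input, which is 0.476% and 0.971% of miR-10b reads in TDRKH IP and 0.613% and 0.339% in input, with overlap between the groups. All 8 member strands with enough reads to be tested were called lower by edgeR over listed reads, against 58% of names in that table. All but the mature strands of miR-10b and miR-125a passed the filter only through the inputs, so the count is a description. With microRNA totals 3 (the mature strands of miR-10a, miR-10b and miR-125a) were lower and 1, the opposite strand of miR-125a, was higher, against 9.34% and 60.8% of names.

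**Figure D4:**
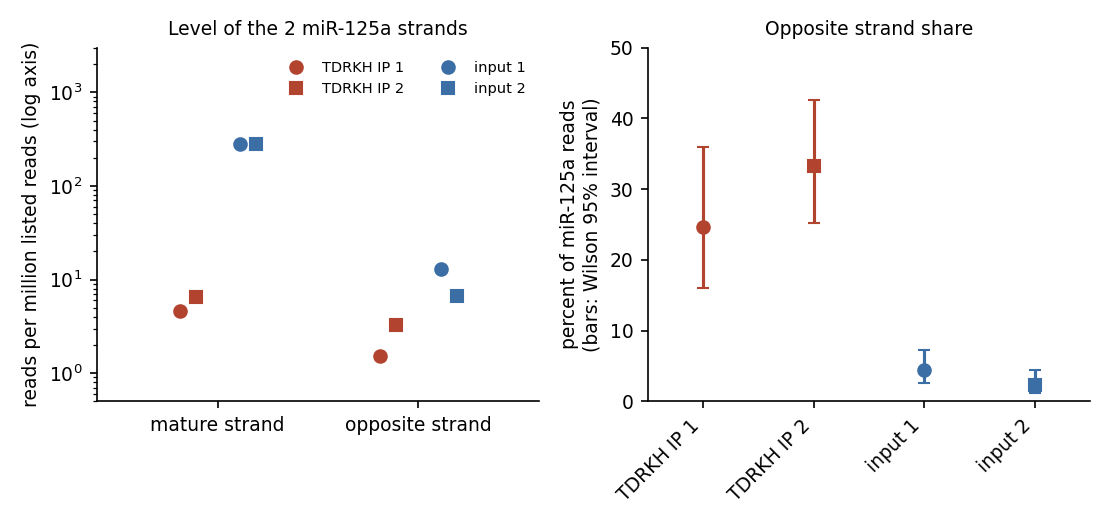
The strands of miR-125a by letters. Left, level in RPM on a log axis, TDRKH IP left of input; right, the opposite strand as percent of miR-125a reads in each library with Wilson 95% intervals, at 24.6% and 33.3% in TDRKH IP and 4.38% and 2.34% in input.

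Starts and lengths of miR-10b differed by a few percentage points at most between the kinds of library. These 3 forms are shown because they hold the main differences in start and end, with bases 2 to 8 of the read in capitals.
miR-10b, 22 nt: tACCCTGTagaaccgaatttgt
miR-10b, 21 nt: aCCCTGTAgaaccgaatttgt
miR-10b, 24 nt: tACCCTGTagaaccgaatttgtga
The 22 nt form, 1 base short of the mature sequence, had 121 and 184 reads in TDRKH IP and 1375 and 1999 in input. Reads of 22 nt made up 63.6% and 62.4% of mature-strand miR-10b reads in TDRKH IP and 66.4% and 62.0% in input, with overlap (exact permutation p = 1). Over sequences with no note the share differed by -17.9 points (exact permutation p = 0.333, the smallest possible), and the 22 nt form itself, named miR-10a with a note, is then left out. Reads that began at the first mature base made up 82.8% and 85.0% in TDRKH IP and 81.9% and 81.6% in input. Reads that began 1 base later, as the 21 nt form does, made up 16.3% and 14.7% in TDRKH IP and 16.6% and 16.8% in input. The later start moves the seed window by 1 base, to that of the second line. The mean length was 22.1 nt ± 0.0305 in TDRKH IP and 21.98 nt ± 0.00956 in input (SD, n = 2 each, exact permutation p = 0.333). The difference of 0.108 nt was in the same direction in both TDRKH IP libraries.

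A base beyond the mature end was found in reads of either start, and which base it was went with the start. The last base is in capitals.
miR-10b, first start: taccctgtagaaccgaatttgtgA
miR-10b, later start: accctgtagaaccgaatttgtgT
miR-125a: tccctgagaccctttaacctgtgA
Among exact miR-10b reads with the first start and 1 added base, that base was A in 83.3% and 45% of TDRKH IP reads (10 of 12 and 9 of 20) and in 58.0% and 69.8% of input reads (47 of 81 and 118 of 169). Among those with the later start it was A in 25% and 20% of TDRKH IP reads (3 of 12 and 3 of 15) and in 17.9% and 17.7% of input reads (21 of 117 and 35 of 198), and T in most of the others. The share of A was higher with the first start in all 4 libraries, and TDRKH IP and input overlapped for the first start. In miR-125a the added base was A in 89.5% and 93.5% of TDRKH IP reads and in 75% and 82.2% of input reads. Without a genome of the files' build, whether these bases are those of the hairpin was not tested.

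miR-125a was longer than miR-10b and had 2 length peaks. Reads of 24 nt made up 42.3% and 45.8% of its mature strand in TDRKH IP and 45.1% and 39.9% in input. Reads of 22 nt made up 28.8% and 23.6% in TDRKH IP and 29.4% and 33.8% in input. Those of 23 nt made up 17.3% and 22.2% in TDRKH IP and 14.1% and 15.7% in input. In TDRKH IP 2 the peak at 22 nt thus rests on 17 reads against 16 of 23 nt. The mean length was 22.9 nt in both groups, and 94.2% and 90.3% of reads in TDRKH IP began at the first mature base, against 92.8% and 93.1% in input. Reads whose bases 2 to 8 equal the miR-125 seed made up 94.2% and 88.9% in TDRKH IP and 82.4% and 85.4% in input, without overlap (exact permutation p = 0.333, the smallest possible). In miR-125b, miR-99b and miR-99a, 22 nt was the most frequent length in either group. Their 6 to 15 mature-strand reads per TDRKH IP library leave no room for a comparison of forms.

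**Figure D5:**
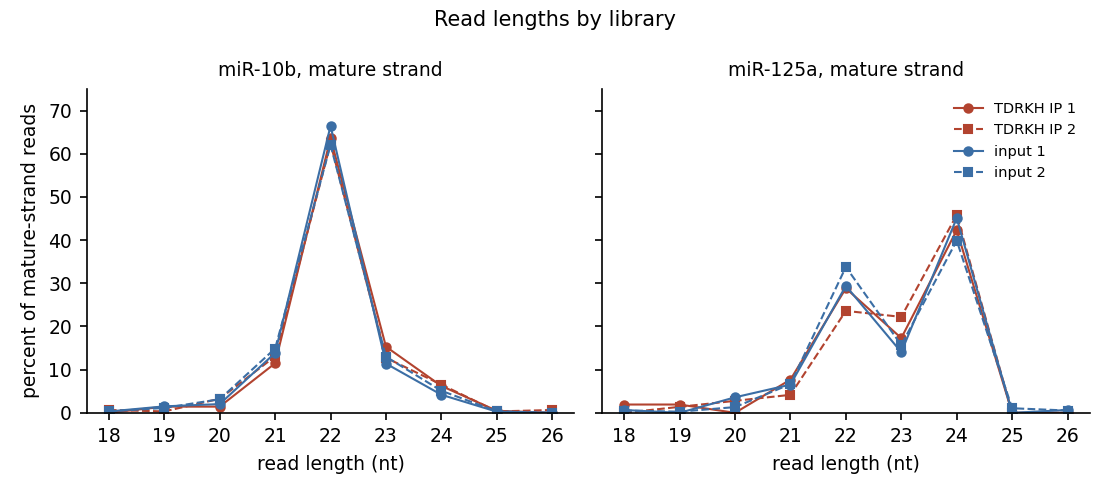
Read lengths of the mature strand of miR-10b and miR-125a (horizontal axis in nt) as percent of that strand's reads in each library, TDRKH IP in red and input in blue. miR-10b peaks at 22 nt, with 63.6% and 62.4% in TDRKH IP and 66.4% and 62.0% in input. miR-125a peaks at 24 nt and 22 nt, but in TDRKH IP 2 its 22 nt reads (23.6%) barely exceed those of 23 nt (22.2%).

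Of the 20 member sequences that reached 10 RPM in at least 2 libraries, 14 were miR-10b and 4 miR-125a. All were called lower in TDRKH IP by edgeR, where 19.9% of 11786 sequences were lower and 41.9% higher. The 22 nt form of miR-10b, at 10.9 and 16.6 RPM in TDRKH IP, reached that level in all 4 libraries. The others had reached it through the inputs, so the count is a description. The log2 changes of the 17 with reads in both TDRKH IP libraries ran from -4.65 to -6.77. The sequence with no read in TDRKH IP was at least 195-fold lower there, taking 3 reads over both libraries as the limit. The median over the 20 was -6.25, also with that sequence at its bound, against 0.70 over all sequences tested. With microRNA totals 15 of the 20 were called lower, against 3.22% of all sequences lower and 95.4% higher. The 24 nt form of miR-125a printed above fell by 4.92 (adjusted p = 7.98e-13, edgeR) and its 22 nt form fell by 5.47 (adjusted p = 1.91e-13, edgeR). The 22 nt form of miR-10b fell by 6.64 (adjusted p = 2.15e-18, edgeR).

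Reads that differed from the mature sequence were a smaller part of the TDRKH IP. Reads with at least 1 mismatch made up 2.81% and 3.90% of mature-strand member reads in TDRKH IP and 15.7% and 10.4% in input. Within miR-10b they were 1.44% and 2.61% in TDRKH IP and 8.41% and 5.93% in input. Reads with G, C or T at position 12 were not sorted as miR-10b and are not in these shares. Those with G numbered 1 and 0 in TDRKH IP and 75 and 77 in input. The files listed 0 single-base variants of the 22 nt form of miR-10b at positions 1 to 18 other than 12. The share over all members therefore also depends on the mix of members. For miR-125a the shares were 3.85% and 8.33% in TDRKH IP (2 of 52 and 6 of 72 reads) and 39.5% and 26.6% in input (121 of 306 and 100 of 376). TDRKH IP and input did not overlap (exact permutation p = 0.333, the smallest possible). Over all listed reads, those with a bracketed note made up 32.5% and 32.5% in TDRKH IP and 48.5% and 42.0% in input, so a lower share was also seen over all listed reads, and its part in the member shares was not tested.

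The base at position 12 of miR-10b had a further form, shown with that base in capitals.
miR-10a or miR-10b: taccctgtagaGccgaatttgt
A read with G at position 12, which is A12G relative to miR-10b, was seen in 1 of 211 and 0 of 307 reads in TDRKH IP (0.474% and 0%, Wilson 95% intervals 0.0837% to 2.64% and 0% to 1.24%). In input it was seen in 75 of 2367 and 77 of 3625 reads (3.17% and 2.12%, intervals 2.54% to 3.95% and 1.70% to 2.65%). TDRKH IP and input did not overlap, and the exact permutation test gave p = 0.333, the smallest possible. C at that position was carried by 0 and 0 reads in TDRKH IP and by 10 and 9 in input, fewer than G in both inputs. Within miR-10b, positions 1 to 18 other than 12 could not be compared. Of the 51 possible single-base variants of the 22 nt form there, the files listed 0. Of its 12 possible variants after position 18 they listed 6, with 0 and 2 reads in TDRKH IP and 77 and 72 in input. The 22 nt form itself had 121 and 184 reads, against 1375 and 1999. Of the 51 variants of the 24 nt form of miR-125a at positions 1 to 18 other than 12, they listed 24. These had 2 and 1 reads in TDRKH IP and 27 and 29 in input, where the 24 nt form had 17 and 29, against 66 and 88. Scarcer variants in TDRKH IP were thus not seen at position 12 alone.

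The microRNAs compared from the same hairpin clusters were let-7a, let-7c and let-7e, and all 3 fell. MIR12038, near MIR99B and MIR125A, and MIR196A-1 and MIR2886, near MIR10A, also lay within 60 kb and were not in this list. let-7e, between the genes of miR-99b and miR-125a, stood at 2.24 and 3.44 RPM in TDRKH IP and 240.0 and 219 RPM in input, and fell by 6.32 on the log2 scale (adjusted p = 6.94e-08, edgeR). let-7c, beside miR-99a and miR-125b, stood at 10.9 and 14.0 RPM in TDRKH IP and 436 and 462 RPM in input, and fell by 5.17 (adjusted p = 3.11e-08, edgeR). let-7a, which has further genes elsewhere, fell by 5.77 (adjusted p = 1.72e-07, edgeR). With microRNA totals the change was -1.59 for let-7e (adjusted p = 1.19e-06), -0.43 for let-7c (adjusted p = 0.112) and -1.04 for let-7a (adjusted p = 6.87e-06, edgeR). Of the let-7 family with miR-98, 9 of 9 tested fell, and of the miR-30 family 6 of 6, with medians of -5.64 and -5.63, where 57.7% of all names and 128 of the 150 other microRNAs were called lower. With microRNA totals 7 of 9 and 4 of 6 were called lower, against 8.99% of all names and 75 of the 150 other microRNAs. The patterns most like that of the summed members over the 4 libraries, by the root mean square difference of centred log2(RPM + 0.1), were those of miR-1260b (0.0986), miR-27b (0.115) and miR-93 (0.122).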

How the data were processed

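Small RNA was sequenced from 2 TDRKH IP and 2 input samples on a NextSeq (single-end, NEXTflex kit), per the labels' protocols. Each deposited table, of the annotation tool unitas by its name, gives a distinct sequence, its read count and its annotations, per the file headers; no label states the tool's version, the build or the microRNA reference. All rows had a name. The members and lists were chosen with earlier results of these data known.

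The reads of a sequence were split evenly over its names. Counts per name were tested with edgeR 4.0.16 (glmQLFit and glmQLFTest, filterByExpr, total listed reads as library size, no covariate), with adjusted p under 0.05 as the call. Approximate SEs come from the F statistic. DESeq2 1.42.0, TMM factors, microRNA totals, other filters, other ways to count a sequence, thinning and leaving out libraries were the alternatives. Reads sorted by letters, families and strands were added after the data were seen, with the same test. The code was tested on simulated data. Shares were compared with exact permutation tests, and intervals are Wilson 95%. Reads can be PCR copies, so intervals and the limit of 3 reads cover counting error only.

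Named were all 7 members, the 2 leading sequences of each over the inputs and the leading one of each strand, the lists of let-7 and miR-30 families and hairpin cluster partners, and the 3 other microRNAs (at least 100 input reads) whose pattern was nearest. The forms that carry a start, an end or a base at position 12 were chosen after their values were seen. No genome of the files' build and no table of mature microRNAs was used here.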

Additional observations from a re-analysis of the deposited data

How the results depend on the processing

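The scale decided most. With microRNA totals as library size, 3 of 7 members by name, 5 arm names, 3 members by letters, 1 family and 3 strands were called lower, against 7, 11, 6, 3 and 8 over listed reads, and the sum of the members differed by -1.65 in log2 share of microRNA reads in place of -6.40. Over all names the calls were 3091 lower and 902 higher, against 2523 and 1817 with TMM factors (median -1.10), 1327 and 1808 with DESeq2's own size factors (median -0.33) and 481 and 3280 with microRNA totals (median 2.31). The opposite strand of miR-125a turned to 0.0678 with DESeq2 size factors and to 2.71 with microRNA totals. Over sequences with no note, which leaves out the leading miR-10b read, the sum was -5.89, the share of miR-10b differed by -29.6 points, that of miR-125a by 24.9, that of -3p names by -0.71 (-5.07 over all) and the 22 nt share of miR-10b by -17.9. The sum was -4.31 with each distinct sequence counted once. Counted so, the share of miR-10b was 0.13 points higher and that of miR-125a -4.69 points in TDRKH IP minus input, in place of -14.6 and 12.9. A distinct sequence with a mismatch then weighs as much as the leading read, and the part of this in the change was not tested.

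Leaving out 1 library at a time assumes that the lone library varies like the others. Each member by name then kept a negative log2 change. It lay between -7.12 and -6.79 for miR-10b and between -5.33 and -4.46 for miR-100, which had the largest and the smallest drop with all libraries. By letters miR-10a no longer reached the filter without input 2, and miR-99a-3p by arm without input 1, while the opposite strand of miR-125a lost its call without either input. The sum lay between -6.69 and -6.11. The 22 nt share of miR-10b, -1.22 points, lay between -3.42 and 0.98 points, positive without input 1. The other shares kept their sign: miR-10b -15.9 to -13.4, miR-125a 11.8 to 14.1, opposite strand 21.3 to 30.0, -3p names -6.23 to -3.91, first start 2.46 to 2.94 and notes -17.7 to -16.2 points.

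Same-numbered libraries did not deviate together (r = 0.02 over 5353 names). With 2 libraries per group and few reads for many names, this cannot settle whether the numbers pair them, and no label says so. With the replicate block 7 members, 11 arm names, 20 sequences, 6 members by letters, 3 families and 8 strands were called lower. Over all features in the same fits, those called lower were 3027 of 5353 names, 3074 of 5396 with arms and 2313 of 11786 sequences. In the tables by letters, family and strand they were 3025 of 5353, 3023 of 5349 and 3071 of 5394. The 305 and 452 member reads limit what TDRKH IP can show of single forms.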
